A study of Homo sapiens with 15 samples.

Results

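The clustered protocadherin genes are 53 protein-coding genes that lie in tandem on chromosome 5 between 140.1 and 140.9 Mb (hg19), chosen by gene symbol and position out of 20098 protein-coding genes. The rule uses no measured value, but the family was picked with earlier results of these data known. They comprised 13 alpha, 16 beta and 19 gamma genes (12 of subfamily A and 7 of subfamily B) and 5 C-type genes, namely PCDHAC1, PCDHAC2, PCDHGC3, PCDHGC4 and PCDHGC5. Of the consensus peaks of the study, 22 of 22572 H3K4me3 peaks and 11 of 62195 H3K27ac peaks lay wholly inside the interval. H3K4me3 marks active promoters, and H3K27ac marks active promoters and enhancers.

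ChIP-seq of both marks was performed in 3 related human cell lines, with 2 biological replicates for each line and mark. Par is the parental MDA-MB-231 line, a claudin-low breast cancer cell line. LM2 and BrM2 are sub-populations of it, selected in mice for colonization of the lung and of the brain, so each stands for a single selected population. All lines were cultured alike for 3 days in medium with 10% serum and fixed with 1% formaldehyde, and no line received a treatment.

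Clustered protocadherins are cadherin-family adhesion molecules that bind the same isoform on an apposed cell, and they are best known for giving neurons a surface identity. In the alpha and gamma clusters each variable exon has its own promoter and is spliced to constant exons shared by the cluster, whereas beta genes consist of a single coding exon. Promoter choice in neurons involves CTCF and cohesin, which bring a variable promoter together with distal enhancers, and most variable promoters carry a conserved sequence element just upstream of the start.

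Library totals over all peaks ranged from 3489607 to 9839629 counts for H3K4me3 and from 1994996 to 6450028 for H3K27ac. In every line replicate 1 was the shallower library for H3K4me3 and the deeper for H3K27ac. The interval itself held 334 to 1537 H3K4me3 counts and 90 to 471 H3K27ac counts per library, so most of its peaks rest on few reads. Replicates correlated at r of 0.98 to 0.982 for H3K4me3 and 0.938 to 0.945 for H3K27ac across peaks, above every correlation between lines (at most 0.971 and 0.913). By H3K4me3 promoter peaks the lines carried all 6 claudin-low markers (VIM, CD44, ZEB1, AXL, CAV1 and SNAI2) and also all 6 luminal markers, but 2 of 6 neuronal markers (SNAP25 and SYP). Among the luminal markers, ESR1, the estrogen receptor, rose in LM2 (log2 fold change 2.52 ± 0.42 (SE), adjusted p = 1.06e-06 by DESeq2) and in BrM2 (1.62 ± 0.43, adjusted p = 0.00686), and FOXA1, a luminal pioneer factor, rose in BrM2 (1.45 ± 0.34, adjusted p = 0.00153). The other luminal markers were not called against Par, so 1 of 6 was called in LM2 and 2 of 6 in BrM2. Of all H3K4me3 peaks, 2.51% and 3.61% were called. With the replicate number as a block in DESeq2, H3K4me3 of 3 luminal markers rose and 1 fell in LM2, and 3 rose in BrM2. Of the claudin-low markers, 1 then fell in LM2, and 2 rose and 2 fell in BrM2. With that block 14.4% and 17.7% of all H3K4me3 peaks were called. Without it no H3K27ac promoter peak of the luminal markers passed by DESeq2 or edgeR. Both BrM2 calls were lost without Par replicate 1, Par replicate 2 or BrM2 replicate 1 (adjusted p of 0.0797, 0.3 and 0.328 for ESR1 and 0.0935, 0.0821 and 0.173 for FOXA1).

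The variable promoters share a short word per cluster, which is shown first because it sits at the edge of several of the peaks. In promoter windows from 250 bases before to 50 bases after the start, GTGGCGCT occurred in 14 of 16 beta promoters (not in PCDHB1 or PCDHB6), in no other member and in 1.57% of 19821 protein-coding promoters, counting both strands. ATGTCGCT occurred in 10 of 13 alpha promoters and 0.293% of all promoters, and GCGCCGCT in 11 of 19 gamma promoters and 4.67% of all. These words were picked from the sequences for being frequent in each cluster. They overlap the letters CGCT, which 96.2% of members and 82.6% of all promoters held. The 30-base windows below are from the plus strand, the coding strand of all members, with the word in capitals. They cover the 6 beta members with both a word and an H3K4me3 peak, the gamma member PCDHGB1 and, for comparison, the alpha member PCDHA1, which had no peak.
PCDHB2 chr5:140474130-140474159: agagacgcgggGTGGCGCTgcagccttaga
PCDHB8 chr5:140557359-140557388: gaggacccgtgGTGGCGCTgcaggataaga
PCDHB9 chr5:140566649-140566678: gaagccacaagGTGGCGCTgcagactgaag
PCDHB10 chr5:140571873-140571902: gaggccacacgGTGGCGCTgcaggctaaag
PCDHB11 chr5:140579104-140579133: ggagacacttgGTGGCGCTgcaggataaca
PCDHB13 chr5:140593438-140593467: gaggacgcgtgGTGGCGCTgcaggataaga
PCDHGB1 chr5:140729593-140729622: acaacctctggGCGCCGCTgtcgaccaaaa
PCDHA1 chr5:140165672-140165701: ttggccacatgATGTCGCTgtacaccacaa
In PCDHB2, PCDHB8, PCDHB9, PCDHB10 and PCDHB11 the word ended 1 to 33 bases before the first base of the H3K4me3 peak. In PCDHB13 and PCDHGB1 it lay inside the peak, 22 and 23 bases from its first base. The word thus stood near the upstream border of the marked region in these 7 promoters. The H3K4me3 peaks of PCDHA13, PCDHB1, PCDHB6 and PCDHGB2, which lack the word of their cluster, also began near the start. A link between the word and the border was not tested.

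C-type promoters differ in composition. The median member promoter held 7 CpG dinucleotides in 300 bases and 39.7% G and C, against 23 CpG and 63.7% for all protein-coding promoters, whereas the C-type median was 18 CpG and 60.7%, with PCDHGC5 the lowest at 5 CpG. The letters CCCTC, part of CTCF motifs, occurred in 26.4% of member promoters and 77.4% of all, counting both strands. These letters are mostly C, and member promoters hold less G and C than others, so this gap does not measure CTCF sites. Whole CTCF motifs were not searched for, in the shared words or elsewhere. The 200 bases upstream of PCDHAC2 are shown because its peak had the smallest adjusted p among the members, with each CpG in capitals, beside those of PCDHB13, the beta promoter whose peak fell, with its word in capitals.
PCDHAC2 chr5:140345861-140346060: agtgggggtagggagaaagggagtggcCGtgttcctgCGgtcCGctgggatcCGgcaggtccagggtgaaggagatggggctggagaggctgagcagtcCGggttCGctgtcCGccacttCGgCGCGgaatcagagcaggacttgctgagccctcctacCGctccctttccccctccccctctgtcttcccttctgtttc
PCDHB13 chr5:140593291-140593490: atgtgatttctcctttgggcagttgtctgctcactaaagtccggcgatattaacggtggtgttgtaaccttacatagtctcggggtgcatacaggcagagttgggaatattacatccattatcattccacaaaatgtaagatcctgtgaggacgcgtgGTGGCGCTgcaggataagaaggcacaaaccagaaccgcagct

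**Figure D1:**
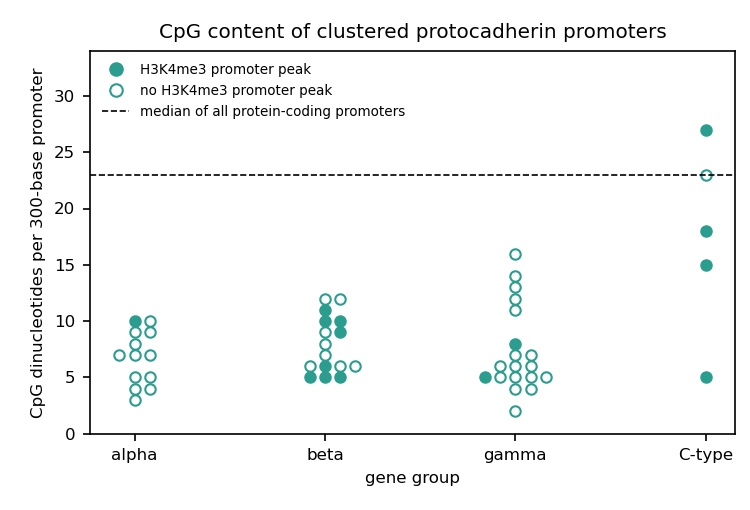
CpG dinucleotides (vertical axis) in the 300-base promoter window of each of the 53 members, by gene group. Filled points had an H3K4me3 promoter peak, and the dashed line is the median of 23 over all protein-coding promoters; PCDHAC1 had the most, 27, while alpha, beta and gamma promoters held 2 to 16.

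Most members carried neither mark. A peak within 2 kb of an annotated start was found at 15 of 53 members (28.3%) for H3K4me3 and 5 of 53 (9.43%) for H3K27ac, against 70.6% and 71.6% of all protein-coding genes. 37 members (69.8%) had neither. The H3K4me3 peaks were at PCDHA13 alone of the alpha genes, at 8 beta genes (PCDHB1, PCDHB2, PCDHB6, PCDHB8, PCDHB9, PCDHB10, PCDHB11 and PCDHB13), at PCDHGB1 and PCDHGB2 of the gamma genes, and at all C-type genes but PCDHGC4. PCDHA1, PCDHB15, PCDHGA12 and PCDHGC4 had no promoter peak of either mark, and PCDHGA1, the first gamma gene, had a short H3K27ac peak alone. H3K27ac was found at PCDHB9, PCDHGA1, PCDHGB1 and PCDHGB2, and at PCDHGC3 only through an annotated start inside the gene. Of 11 protocadherins outside the cluster, 9 had an H3K4me3 and 6 an H3K27ac promoter peak. Peaks were called on merged libraries of all lines, so absence refers to the lines together. How reads from near-identical members were aligned was not tested, and annotated lncRNAs overlap 11 of the 16 member promoter peaks of H3K4me3, whose reads ChIP cannot assign to a strand.

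**Figure D2:**
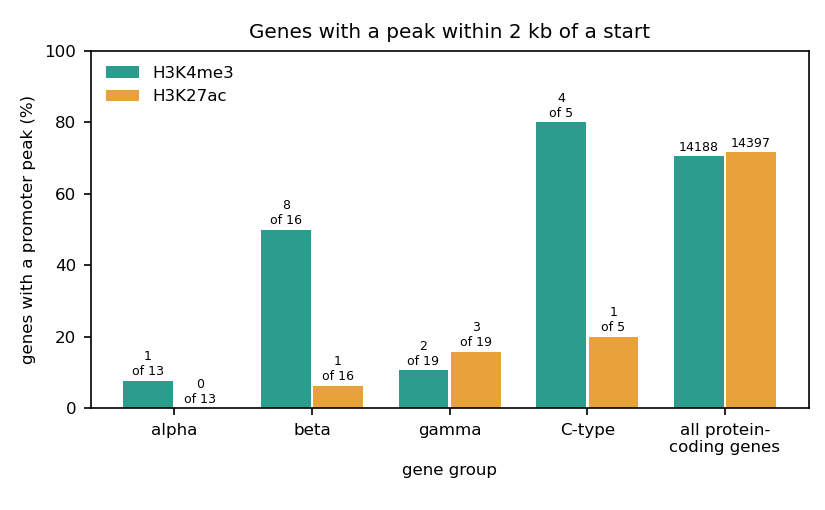
Percent of genes with a peak within 2 kb of an annotated start (vertical axis) by gene group, for H3K4me3 and H3K27ac, with the number of genes above each bar. H3K4me3 was found at 4 of 5 C-type, 8 of 16 beta, 1 of 13 alpha and 2 of 19 gamma genes, shares that were not tested against each other.

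The member peaks were short, and their H3K4me3 was weak. The 16 H3K4me3 peaks at member starts had a median length of 702.5 bp against 2177 bp for all promoter peaks. Their density was 12.2 to 58.2 normalized counts per kb (counts divided by library size factors) with a median of 22.3, against a median of 133 over 13982 promoter peaks, which put the member median at percentile 10.1. For H3K27ac the median of the 5 member peaks was 16.0 per kb against 26.3 over all promoter peaks. By line it was 22.7 against 27 in Par, 24.6 against 25.4 in LM2 and 12.5 against 26.9 in BrM2, so the H3K27ac density lay well under that of other promoters in BrM2 and close to it in LM2. Averaged over the lines, PCDHGB1 and PCDHGB2 had the highest H3K4me3 density of the member peaks, but in BrM2 alone the highest was PCDHAC2, at 39.3 normalized counts per kb. The strongest peak in the interval was that of TAF7, a TFIID subunit gene between the beta and gamma clusters, at 279 and 316 normalized counts in Par, against 252 and 261 in LM2 and 210 and 230 in BrM2. TAF7 H3K4me3 did not pass the test in any contrast (BrM2 against Par, log2 fold change -0.44 ± 0.33, adjusted p = 0.82). Its H3K27ac peak held 58.4 and 75.1 normalized counts in Par, against 61.7 and 72.0 in LM2 and 53.6 and 46.3 in BrM2.

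**Figure D3:**
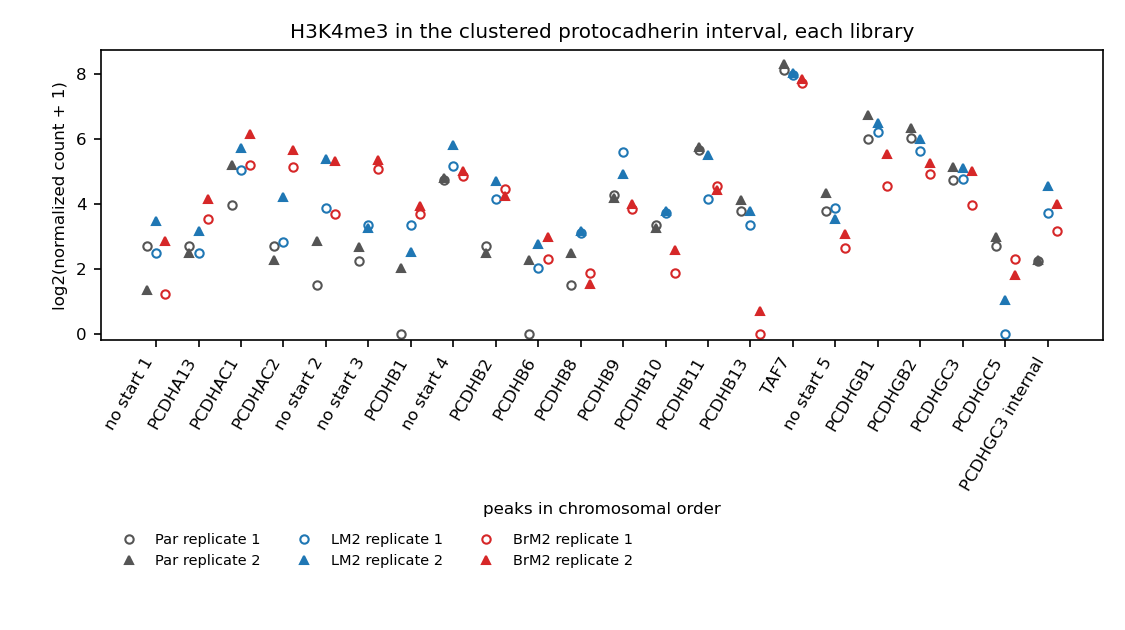
H3K4me3 of the 22 interval peaks in chromosomal order, as log2(normalized count + 1) in each of the 6 libraries, with lines by colour and replicates by symbol. "No start" marks peaks away from any protein-coding start; at PCDHAC2 both BrM2 libraries are the highest and at PCDHB13 they are near 0, while TAF7 is high in all lines.

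The first comparison asked which H3K4me3 peaks of the cluster differ between brain-metastatic BrM2 cells and Par. H3K4me3 rose at PCDHAC2 and at a region between the alpha and beta clusters, and it fell at PCDHB13. By DESeq2 over all H3K4me3 peaks (adjusted p under 0.05), 3 of the 22 interval peaks were called (13.6%), 2 higher and 1 lower, against 3.61% of all peaks tested (2.82% higher and 0.791% lower). A single peak is 4.55% of the interval. edgeR also called 3, against 3.07% of all peaks. With 2 replicates a line, the p-values measure only the spread between these libraries.

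PCDHAC2, a C-type isoform of the alpha cluster, had 5.51 and 3.85 normalized H3K4me3 counts in Par, against 6.10 and 17.5 in LM2 and 34.3 and 49.2 in BrM2. Both BrM2 libraries lay above all others, and the lines did not overlap. Over all H3K4me3 peaks, BrM2 lay above Par without overlap at 21.6% and below it at 17.3%. In the interval this held for 10 and 9 of the 22 peaks. The peak (chr5:140345613-140346673) covers the start and exon of PCDHAC2 and overlaps an annotated lncRNA. It was 9.36-fold higher in BrM2 than in Par (log2 fold change 3.23 ± 0.85 (SE), adjusted p = 0.00749 by DESeq2). Without one Par or BrM2 library the log2 fold change ranged from 2.93 to 3.46 and the call was lost each time (without Par replicate 1 adjusted p = 0.0739, without Par replicate 2 0.366, without BrM2 replicate 1 0.103, without BrM2 replicate 2 0.392), where the lone library was assumed to vary like the others. Between BrM2 and LM2 the difference was 1.74 ± 0.73 (adjusted p = 0.252), and it passed with the replicate number as a block (1.82, adjusted p = 0.0333).

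The called region between the clusters (chr5:140419572-140420665) lies in no member gene, 10294 bp from the start of PCDHB1, and overlaps an annotated lncRNA. It held 3.67 and 5.39 normalized counts in Par, against 9.15 and 8.47 in LM2 and 33.0 and 39.8 in BrM2. Both BrM2 libraries were again the highest and the lines did not overlap, where 21.6% of all H3K4me3 peaks had BrM2 above Par without overlap. The region rose in BrM2 against Par by 2.95 ± 0.84 on the log2 scale (adjusted p = 0.0164 by DESeq2). The call was lost without Par replicate 1 (adjusted p = 0.205), Par replicate 2 (0.341), BrM2 replicate 1 (0.232) or BrM2 replicate 2 (0.436). Between BrM2 and LM2 the difference was 2.06 ± 0.74 (adjusted p = 0.123), and with the replicate block it passed (2.07, adjusted p = 0.0191). The middle 300 bases are shown as the changed element outside any promoter, on the plus strand with CpG in capitals. The whole peak holds 46.1% G and C and 32.9 CpG per kb.
Region chr5:140419969-140420268: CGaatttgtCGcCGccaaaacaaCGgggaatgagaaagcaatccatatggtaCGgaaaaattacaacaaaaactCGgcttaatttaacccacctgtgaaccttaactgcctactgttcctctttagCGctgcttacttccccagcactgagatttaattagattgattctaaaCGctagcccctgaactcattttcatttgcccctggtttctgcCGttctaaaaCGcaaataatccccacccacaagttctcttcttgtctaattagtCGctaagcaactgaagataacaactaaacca

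PCDHB13, a beta isoform, moved the other way. It had 12.9 and 16.2 normalized counts in Par, against 9.15 and 12.7 in LM2 and 0 and 0.622 in BrM2, where the raw counts summed to 1 against 28 in Par and 30 in LM2. LM2 differed from Par by -0.40 ± 0.96 (adjusted p = 1), and the BrM2 libraries were nearly empty. The BrM2 to Par ratio of summed counts was 0.0278, with an exact 95% interval for counting error alone of 0.00068 to 0.168, and the fitted difference passed (log2 fold change -5.08 ± 1.61, adjusted p = 0.0448 by DESeq2). This call was lost without any single library, LM2 libraries included, with adjusted p from 0.0618 to 0.359 in the 5 fits that gave one. In the fit without Par replicate 2 no adjusted p was given. Of the 8 alternative fits with all libraries, 7 called PCDHB13, and the fit limited to a mean raw count of at least 10 left it out. Against LM2 the ratio was 0.0359 (0.000879 to 0.216), with adjusted p = 0.0908, and adjusted p = 0.0159 with the replicate block. The middle of the PCDHB13 peak is nearly identical in sequence to that of the PCDHB8 peak. PCDHB8 had 1.84 and 4.62 normalized counts in Par, against 7.62 and 7.94 in LM2 and 2.64 and 1.87 in BrM2. How reads were assigned between these 2 genes was not tested.

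The remaining H3K4me3 peaks did not pass in BrM2 against Par, but their estimates were ordered along the chromosome. All 10 peaks from the upstream end to PCDHB6 had log2 fold changes above 0 (0.16 to 3.23), and 11 of the 12 from PCDHB8 onward were below 0, the exception being the internal PCDHGC3 start (1.63). This order was noticed in the data and is given without a test. Some estimates on both sides were smaller than their SE, such as 0.32 ± 1.42 at the first peak, 1.28 ± 1.53 at PCDHB6 and -0.65 ± 1.44 at PCDHB8. With loess offsets 10 of the 22 peaks were above 0 and 12 below. Over all 22 peaks the median was -0.08, against -0.02 for all peaks. PCDHB11 had 49.6 and 53.2 normalized counts in Par, against 16.8 and 44.5 in LM2 and 22.4 and 20.5 in BrM2, a BrM2 against Par difference of -1.27 ± 0.60 that did not pass (adjusted p = 0.388).

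**Figure D4:**
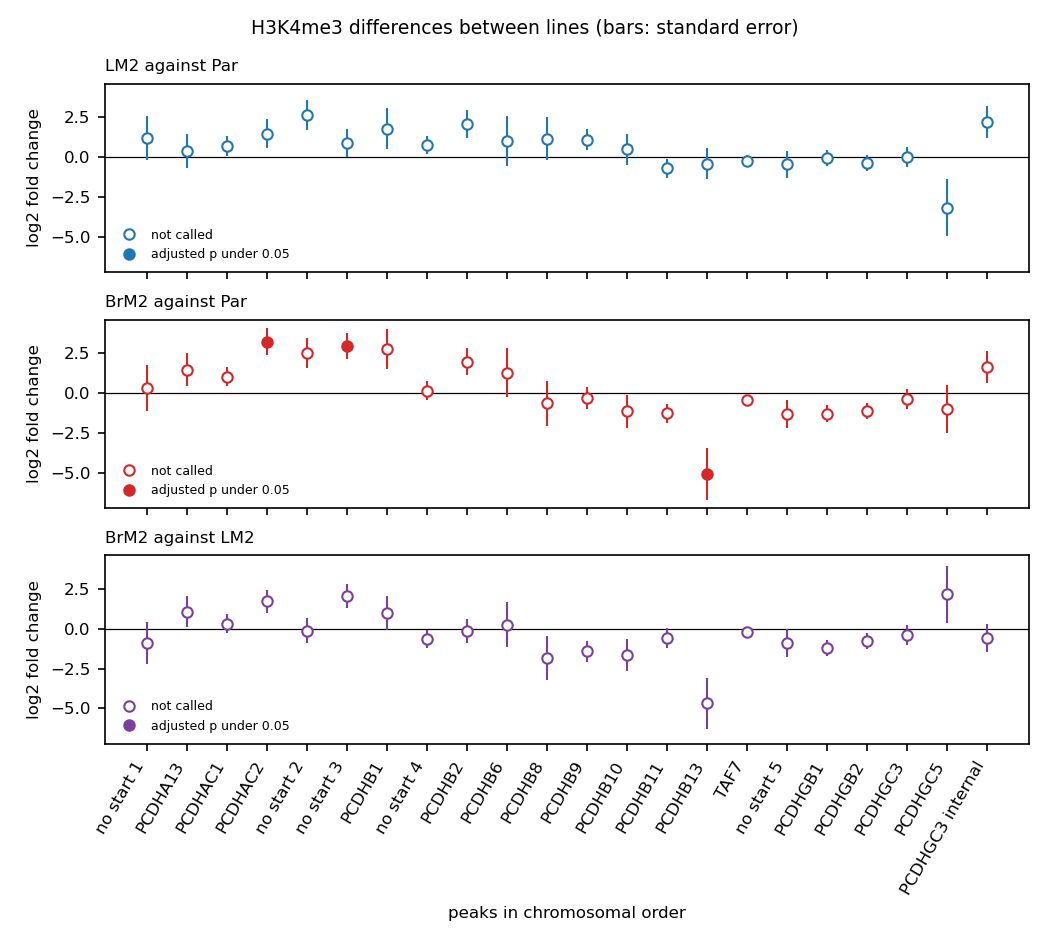
H3K4me3 log2 fold change (vertical axis, bars ± 1 SE) of the 22 interval peaks in chromosomal order for LM2 against Par, BrM2 against Par and BrM2 against LM2. Filled points have an adjusted p under 0.05; in BrM2 against Par the peaks up to PCDHB6 lie above 0 and all but 1 from PCDHB8 on lie below it.

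PCDHAC1, the other alpha C-type gene, had 14.7 and 35.4 normalized H3K4me3 counts in Par, against 32.0 and 51.9 in LM2 and 35.6 and 70.3 in BrM2. The PCDHGC3 promoter had 25.7 and 33.9 in Par, against 25.9 and 33.4 in LM2 and 14.5 and 31.1 in BrM2. PCDHGC5 had 5.51 and 6.94 in Par, against 0 and 1.06 in LM2 and 3.95 and 2.49 in BrM2. PCDHGC3 overlapped between all lines, and in BrM2 against Par none of these 3 passed (PCDHAC1 1.04 ± 0.61, PCDHGC3 -0.36 ± 0.63, PCDHGC5 with a ratio of summed counts of 0.454 and a counting interval of 0.152 to 1.25). For PCDHGC5, LM2 held 2 raw counts against 12 in Par, a ratio of 0.121 with a counting interval of 0.0131 to 0.542, and no adjusted p was given after filtering. PCDHA13, the last variable alpha gene, had 5.51 and 4.62 in Par, against 4.57 and 7.94 in LM2 and 10.5 and 16.8 in BrM2 (BrM2 against Par 1.47 ± 1.03). PCDHB1, the first beta gene, had 0 and 3.08 in Par, against 9.15 and 4.76 in LM2 and 11.9 and 14.3 in BrM2 (2.77 ± 1.27, adjusted p = 0.343).

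The gamma promoters PCDHGB1 and PCDHGB2, the member peaks of highest density in Par and LM2, had their lowest H3K4me3 in BrM2. PCDHGB1 had 62.5 and 105 normalized H3K4me3 counts in Par, against 73.2 and 88.9 in LM2 and 22.4 and 45.4 in BrM2. PCDHGB2 had 64.3 and 80.1 in Par, against 48.8 and 63.0 in LM2 and 29.0 and 37.3 in BrM2. Both BrM2 libraries lay below every other library at both genes. Over all H3K4me3 peaks, BrM2 lay below Par without overlap at 17.3% and below LM2 at 18.2%. The BrM2 against Par log2 fold changes of -1.28 ± 0.51 (adjusted p = 0.186) and -1.12 ± 0.49 (adjusted p = 0.286) did not pass by DESeq2. With the replicate block they did (-1.30, adjusted p = 0.00562, and -1.12, adjusted p = 0.0289). H3K27ac at both genes was likewise lowest in BrM2, and neither gene passed by DESeq2 or edgeR. PCDHGB1 had 19.2 and 21.0 normalized H3K27ac counts in Par, against 15.7 and 26.6 in LM2 and 7.80 and 13.5 in BrM2 (BrM2 against Par -0.98 ± 0.70, adjusted p = 0.57). PCDHGB2 had 33.1 and 25 in Par, against 19.6 and 23.7 in LM2 and 9.75 and 11.6 in BrM2 (-1.47 ± 0.64, adjusted p = 0.2), and it passed in edgeR with the replicate block (-1.49, adjusted p = 0.0159) but not in DESeq2 with it (adjusted p = 0.169).

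The replicate block raised the number of calls both in the interval and over all peaks. edgeR with the block called 7 of the 22 interval peaks in LM2 against Par (31.8%, all H3K4me3 peaks 26.2%), 14 in BrM2 against Par (63.6%, all 33.3%) and 8 in BrM2 against LM2 (36.4%, all 38.6%). In BrM2 against Par the DESeq2 fit with the block gave 6 of 22 interval peaks (27.3%) against 17.7% of all peaks. The added calls were PCDHGB1, PCDHGB2 and a region in an intron shared by 15 alpha-cluster genes (chr5:140381071-140382000), at 2.64 (adjusted p = 0.012).

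LM2 was compared with Par by the same fit, which shares the Par libraries with the BrM2 comparison. No H3K4me3 peak of the interval passed by DESeq2 (background 2.51%) or edgeR (1.61%), with 3 peaks at an unadjusted p under 0.05 in DESeq2 and 4 in edgeR. The median log2 fold change of the 22 peaks was 0.75, with 14 above 0, against 0.02 over all peaks and 0.10 over 70 peaks in the flanking 2 Mb on each side. The region in the alpha intron held 1.84 and 6.16 normalized counts in Par, against 13.7 and 40.2 in LM2 and 11.9 and 38.6 in BrM2. Both metastatic lines lay above Par there, by 2.64 ± 0.94 in LM2 (adjusted p = 0.142), which passed with the replicate block (2.76, adjusted p = 0.00956) as the only one of 18 interval peaks with an adjusted p (5.56%), against 14.4% of all peaks. PCDHB2 had 5.51 and 4.62 normalized counts in Par, against 16.8 and 24.9 in LM2 and 21.1 and 18.1 in BrM2, a difference of 2.09 ± 0.86 in LM2 that did not pass (adjusted p = 0.283).

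Between BrM2 and LM2 no H3K4me3 peak of the interval passed by DESeq2 (background 3.18%) or edgeR (2.81%), with 5 at an unadjusted p under 0.05 in each. With the replicate block 4 of the 21 peaks with an adjusted p passed (19%), against 22% of all peaks. They were PCDHAC2 and the region between the clusters, higher in BrM2, and PCDHB13 and PCDHGB1 (-1.27, adjusted p = 0.00544), lower in BrM2.

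For H3K27ac the changed peak lay just past the gamma cluster. The peak chr5:140892698-140895215 lies in no member gene, 5061 bp from the nearest member start, the internal one of PCDHGC3. Its last 633 bp overlap the final exon of DIAPH1, a formin gene on the opposite strand. It had 6.97 and 16.0 normalized counts in Par, against 39.3 and 54.2 in LM2 and 5.85 and 7.71 in BrM2. Both LM2 libraries lay above all others, while Par and BrM2 overlapped. Over all H3K27ac peaks, LM2 lay above Par without overlap at 21.7%, and BrM2 lay below LM2 at 24.5%. The peak rose 4.09-fold in LM2 against Par (log2 fold change 2.03 ± 0.61, adjusted p = 0.0304 by DESeq2). It was lower in BrM2 than in LM2 (-2.82 ± 0.71, adjusted p = 0.00584 by DESeq2). It was the only call of the 7 interval peaks with an adjusted p in LM2 against Par (14.3%, background 3.63%, of which 2.72% higher) and of the 5 in BrM2 against LM2 (20%, background 2.94%, of which 1.22% lower). edgeR called it alone in BrM2 against LM2 (background 3.89%). Without a library the LM2 against Par log2 fold change ranged from 1.54 (without Par replicate 1) to 2.74 (without Par replicate 2), and the call was lost in all 6 cases, with adjusted p from 0.0593 to 0.567. The BrM2 against LM2 call was lost without LM2 replicate 1 (0.136), LM2 replicate 2 (0.285), BrM2 replicate 1 (0.549) or BrM2 replicate 2 (0.113).

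A neighbouring H3K27ac peak over an exon and the internal start of PCDHGC3 (chr5:140886944-140890313) was also highest in LM2. It had 31.4 and 37.1 normalized counts in Par, against 83.0 and 82.8 in LM2 and 28.3 and 55.9 in BrM2. The LM2 libraries lay above all others, where LM2 lay above Par without overlap at 21.7% of all H3K27ac peaks. The LM2 against Par difference of 1.28 ± 0.43 did not pass by DESeq2 (adjusted p = 0.0699), but passed in edgeR (1.29, adjusted p = 0.0348) and with the replicate block (1.30, adjusted p = 0.0297), so that 2 interval peaks were called in each (background 5.14% and 5.44%). With the block DESeq2 called 0 in BrM2 against Par (background 8.13%) and 1 in BrM2 against LM2 (6.17%), and edgeR called 2, 1 and 2 in the 3 contrasts (13.2%, 15.9% and 12.5%). An H3K4me3 peak at the same internal start had 3.67 and 3.85 in Par, against 12.2 and 22.2 in LM2 and 7.91 and 14.9 in BrM2 (LM2 against Par 2.22 ± 1.00, adjusted p = 0.411).

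In BrM2 against Par no H3K27ac peak of the interval passed by DESeq2 (background 5.29%) or edgeR (6.88%), with 1 and 2 at an unadjusted p under 0.05. The median of the 11 peaks was -0.75, against -0.02 over all peaks. Between BrM2 and LM2, 10 of 11 were below 0 with a median of -1.03, against -0.13 over 233 peaks of the flanks. The lines did not overlap at these 10 peaks, BrM2 being lower, against 24.5% of all H3K27ac peaks. PCDHGA1 had 3.48 and 7.01 normalized counts in Par, against 7.85 and 7.89 in LM2 and 3.90 and 1.93 in BrM2 at its H3K27ac peak. BrM2 replicate 2 was the shallowest H3K27ac library, with 90 counts in the interval.

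**Figure D5:**
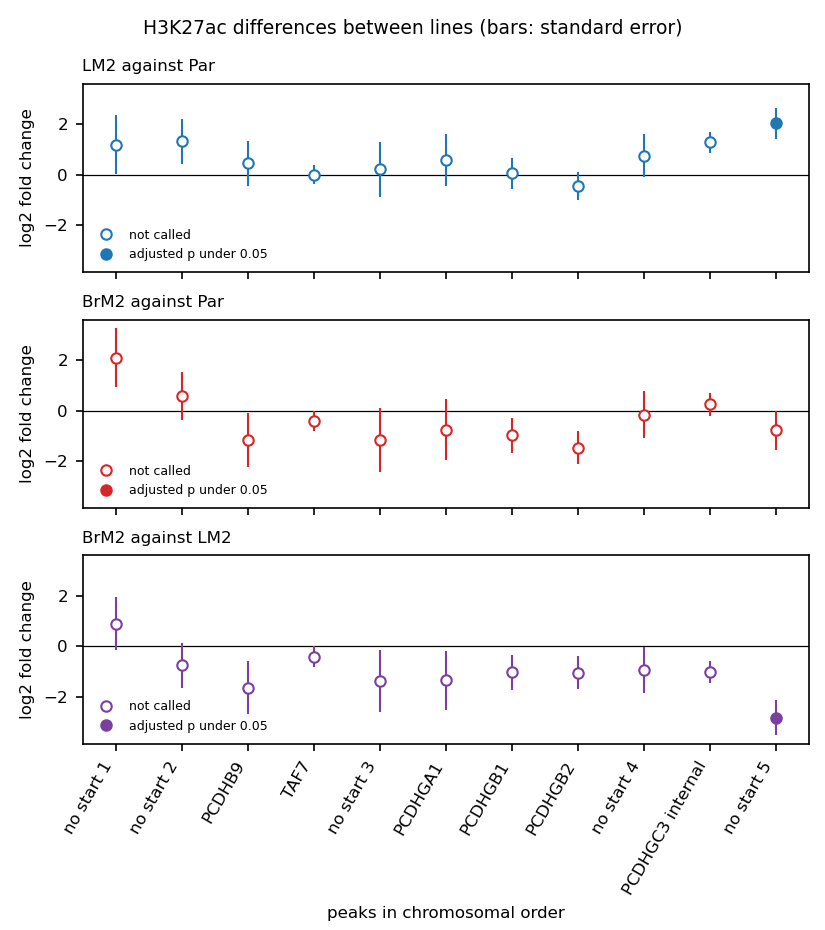
H3K27ac log2 fold change (vertical axis, bars ± 1 SE) of the 11 interval peaks in chromosomal order for the 3 contrasts, with filled points at an adjusted p under 0.05. The last peak, past the gamma genes, is the only call, at 2.03 in LM2 against Par and -2.82 in BrM2 against LM2.

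The genes known to regulate or partner with clustered protocadherins carried both marks at nearly all promoters, and none changed by DESeq2 without the replicate block. All 19 listed regulators (CTCF, cohesin subunits and loaders, SMCHD1, SETDB1, TRIM28, REST, DNA methyltransferases and others) had promoter peaks of both marks. None passed by DESeq2 in any contrast and mark, with 0 to 3 at an unadjusted p under 0.05. edgeR called 1, SMC1A, a cohesin subunit gene, whose H3K4me3 was lower in BrM2 than in Par (DESeq2 log2 fold change -1.04 ± 0.34, adjusted p = 0.0547, and edgeR -1.06, adjusted p = 0.0443), at 308.6 and 363 normalized counts in Par, against 298.8 and 363.2 in LM2 and 163.5 and 164.9 in BrM2. BrM2 against LM2 gave -1.02 ± 0.33 (adjusted p = 0.0676). With the replicate block SMC1A passed in both contrasts (-1.04, adjusted p = 6.4e-07, and -1.02, adjusted p = 6.54e-07). The regulators' median H3K4me3 difference was -0.25 in BrM2 against Par and -0.03 in LM2 against Par. Of 21 partner and processing genes (ADAM10 and the gamma-secretase subunits, which cleave protocadherins, FAK and PYK2 kinases, and the WAVE complex), 21 had an H3K4me3 and 20 an H3K27ac promoter peak. None of these passed by DESeq2 or edgeR, with 0 to 5 at an unadjusted p under 0.05, and their median H3K4me3 difference in BrM2 was -0.15. With the replicate block 5 of 19 regulators and 4 of 21 partner genes were lower by H3K4me3 in BrM2 against Par and 0 and 1 higher, where 17.7% of all peaks were called. In BrM2 against LM2, 8 regulators and 4 partner genes were lower and 0 and 1 higher (all peaks 22%), and in LM2 against Par 2 regulators rose and 2 fell and 1 partner gene rose (14.4%). By H3K4me3, edgeR with the block called 9, 10 and 13 of 19 regulators in LM2 against Par, BrM2 against Par and BrM2 against LM2. It called 5, 9 and 10 of 21 partner genes, where 26.2%, 33.3% and 38.6% of all H3K4me3 peaks were called.

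Among protocadherins outside the cluster, which are non-clustered delta-type genes and their relatives, 2 of 9 H3K4me3 promoter peaks rose in BrM2 against Par (3.61% of all peaks called) and 1 in LM2 against Par (2.51%). With the replicate block 3 and 5 of the 9 rose (17.7% and 14.4%), and in BrM2 against LM2 1 rose and 2 fell (22%). PCDH20 had 11 and 13.1 normalized counts in Par, against 38.1 and 79.4 in LM2 and 43.5 and 79.0 in BrM2. It was higher in LM2 (2.29 ± 0.63, adjusted p = 0.0159 by DESeq2) and in BrM2 (2.34 ± 0.63, adjusted p = 0.00883), and both metastatic lines lay above Par. PCDH17 had 20.2 and 40.8 in Par, against 38.1 and 58.2 in LM2 and 116 and 130.7 in BrM2 (BrM2 against Par 1.96 ± 0.50, adjusted p = 0.0045). The PCDH17 call was lost without Par replicate 1 (adjusted p = 0.221), BrM2 replicate 1 (0.106) or BrM2 replicate 2 (0.23). For PCDH20 the LM2 call did not hold in edgeR (adjusted p = 0.0712) and was lost without Par replicate 1 (0.196), Par replicate 2 (0.376), LM2 replicate 2 (0.635) or BrM2 replicate 2 (0.0509). Its BrM2 call was lost without Par replicate 1 (0.148), Par replicate 2 (0.224) or BrM2 replicate 2 (0.514). None of the 6 H3K27ac promoter peaks of this group passed by DESeq2 or edgeR in any contrast, with 0 to 2 at an unadjusted p under 0.05. With the replicate block edgeR called 3 of the 6 in LM2 against Par (13.2% of all peaks). It called 0 in BrM2 against Par (15.9%) and 0 in BrM2 against LM2 (12.5%).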

How the data were processed

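Per the labels and methods, the authors trimmed reads with Trimmomatic 0.32, aligned them to hg19 with Bowtie2 2.3.4.3, marked duplicates with Picard 2.18.21, merged the libraries of each mark to call broad consensus peaks with MACS2 2.1.2, and counted reads extended by 150 bp with featureCounts 1.6.0 in each library. The deposited values used here are these raw counts per peak, in 12 libraries. The input libraries were not analysed here. The members and gene lists were chosen with earlier results of these data known.

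All peaks of a mark were fitted together over its 6 libraries with DESeq2 1.42.0 (Wald test on line, Benjamini-Hochberg adjustment, adjusted p under 0.05, independent filtering at 0.1). Adjusted p-values removed by that filter were kept as not given. edgeR 4.0.16 quasi-likelihood, 7 other fits with all libraries and 6 that left out a library were alternatives, run in R 4.3.3, and both tools were tested on simulated data. Counting intervals are exact at 95% and cover counting error only. Counts at an unadjusted p under 0.05 are given without the share over all peaks, which was not computed. Member promoters were peaks within 2 kb of an annotated start. Promoter sequences are hg19 windows of 300 bases.

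Named peaks were the called interval peaks, the 3 with the highest mean per mark, those of the C-type and of the first and last genes of each group, promoters of non-members in the interval, and called promoters of the gene lists. PCDHB2, PCDHB11, the alpha intron region, the internal PCDHGC3 H3K4me3 peak and SMC1A were added after their values were seen.

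The labels give the same replicate numbers in each line but name no shared day or batch. Library depth also went with the number in every line, so a batch and depth cannot be told apart. Deviations of same-numbered libraries from their line means correlated at 0.788 to 0.843 for H3K4me3 and 0.407 to 0.607 for H3K27ac, so the numbers were treated as pairs and fits that blocked on replicate were added.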

Additional observations from a re-analysis of the deposited data

Results flagged for a closer look

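The H3K27ac peak past the gamma cluster (chr5:140892698-140895215) differed between LM2 and BrM2 when each is set against Par, with a BrM2 against LM2 log2 fold change of -2.82 ± 0.71 (adjusted p = 0.00584 by DESeq2), the test of that difference itself. It had 39.3 and 54.2 normalized counts in LM2 against 5.85 and 7.71 in BrM2.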

How the results depend on the processing

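The interval counts rest on few reads and 2 replicates a line. With the replicate block, DESeq2 called 1, 6 and 4 H3K4me3 peaks in LM2 against Par, BrM2 against Par and BrM2 against LM2 (0, 3 and 0 without it), and edgeR with the block called 7, 14 and 8. For H3K27ac edgeR, DESeq2 with the block and edgeR with the block each called 2 in LM2 against Par (1 in DESeq2), and edgeR with the block called 1 in BrM2 against Par (0) and 2 in BrM2 against LM2 (1). In DESeq2 the block changed no other call in the interval than those given with the results. Loess offsets gave 2 H3K4me3 calls in BrM2 against LM2. Leaving out a library gave 0 to 2 H3K4me3 calls in BrM2 against Par, 0 in each case for H3K27ac in LM2 against Par, and 0 to 1 in BrM2 against LM2. At a mean normalized count of at least 50, 2 members had an H3K4me3 and 1 an H3K27ac promoter peak (12997 and 10680 of all genes). A promoter distance of 1 kb or 500 bp left 15 and 5. Of 786 alternative values of 19 named peaks, 688 kept direction and side of the threshold, 36 passed only in the alternative, 41 no longer passed and 21 turned direction. None of the 21 was a called value. Most of the 57 values in the DESeq2 fit without the block were not called, and such values easily kept their side. The 688 therefore say little about the calls, whose losses without a library are given with the results. With a library left out, values ranged in LM2 against Par from -0.37 to 0.38 for PCDHGB1 (0.06 among them), -0.23 to 0.22 for PCDHGC3 (0.14 among them) and -0.14 to 0.66 for PCDHA13. In BrM2 against Par they ranged from -1.03 to 0.0618 for PCDHGC3 and -0.27 to 0.72 for H3K27ac at its internal start. In BrM2 against LM2 they ranged from -1.02 to 0.074 for PCDHGC3, -0.23 to 0.74 for PCDHAC1 and -0.43 to 0.70 for PCDH20 (-0.36 among them, and -0.0404 with loess offsets). TAF7 H3K27ac in LM2 against Par, near 0 in DESeq2, turned to 0.0064 with edgeR, 0.0044 with the DESeq2 block, 0.0123 with the edgeR block, 0.0068 with TMM size factors, 0.0344 with loess offsets, 0.0121 at a mean raw count of at least 10, and ranged from -0.173 to 0.19 without a library (0.116 and 0.0026 among them). The cause was not tested.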
